A study of Homo sapiens with 7 samples.

Results

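Mitochondrial ribosomal protein genes are the nuclear genes whose products, together with RNAs encoded by mitochondrial DNA, form the ribosome of the mitochondrion. That ribosome makes the few proteins of the respiratory chain that mitochondrial DNA encodes. Its proteins are made in the cytosol and imported. Symbols that begin with MRPL name proteins of the large subunit and those with MRPS proteins of the small subunit. Some members descend from bacterial ribosomal proteins and others are found only in mitochondrial ribosomes.

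The genes were taken by their symbol, as MRPL or MRPS followed by a number and, in some, a letter from A to C. Of 20423 genes in the expression table, 76 had such a symbol, 47 of the large and 29 of the small subunit. The rule itself uses no measured value, although this gene family was chosen with earlier results of these data known. All 76 matched a gene of the RefSeq table for GRCh38.p14, 75 by symbol and MRPS36 by synonym. The values come from 1 library of polyA RNA of HCT116, an established line of human colon carcinoma cells, grown in McCoy 5A medium with serum. The labels do not say whether these cells carried a transposon. The same series holds insertion sites of the piggyBac transposase in 5 libraries and SP1 ChIP-seq peaks of 1 sample, both placed on hg18. No gene starts of that build were used here, so peaks and insertions near these genes were not analysed here.

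Levels are RPKM, reads scaled by gene length and by the mapped reads of the library. This scaling is meant to let genes of different length be compared, but single values can still be uncertain. There was no replicate, and the sources used here do not state the depth of the library. No error, test or interval could be computed for a level, and the spread over genes is not an error. In a bulk library, a smaller share of expressing cells and less RNA per cell cannot be told apart. The markers of the line were as follows. Of 11 epithelial markers 8 stood at or above 10 RPKM, against 24.4% of all genes. Among the 8 were the keratins KRT19, KRT8 and KRT18 at 543, 378 and 268 RPKM and the adhesion protein EPCAM at 79.5 RPKM. Of the intestinal markers, CDX2 stood at 9.19 RPKM, and VIL1 and CDX1 at 0.0313 and 0.0242 RPKM. Of 18 markers of other cell types, LUM and HBB were not found in the expression table. Of the 16 found 12 were under 1 RPKM, with the leukocyte gene PTPRC listed at 0. The other 4 were COL1A1 at 14.5, CD68 at 8.65, HBA1 at 3.72 and DES at 2.35 RPKM. Of all genes, 57.0% stood at or above 1 RPKM.

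By their median the 76 genes stood well above the typical gene, and none reached the levels of the most abundant transcripts. The median of the 76 was 34.1 RPKM, with quartiles at 16.6 and 59.6 RPKM, against a median of 1.91 RPKM over all genes. Above that median of all genes lay 74 of the 76, MRPL19 and MRPL49 being the exceptions. A gene at the members' median would rank 1696 of 20423, and 91.7% of all genes lay below the members' median. At or above 1 RPKM were 75 of 76 members (98.7%), against 57.0% of all genes. At or above 10 RPKM were 64 members (84.2%), against 24.4% of all genes. At or above 50 RPKM were 26 members (34.2%), against 5.63% of all genes. Together the members held 3326 of 342331 RPKM summed over all genes, or 0.972%.

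**Figure D1:**
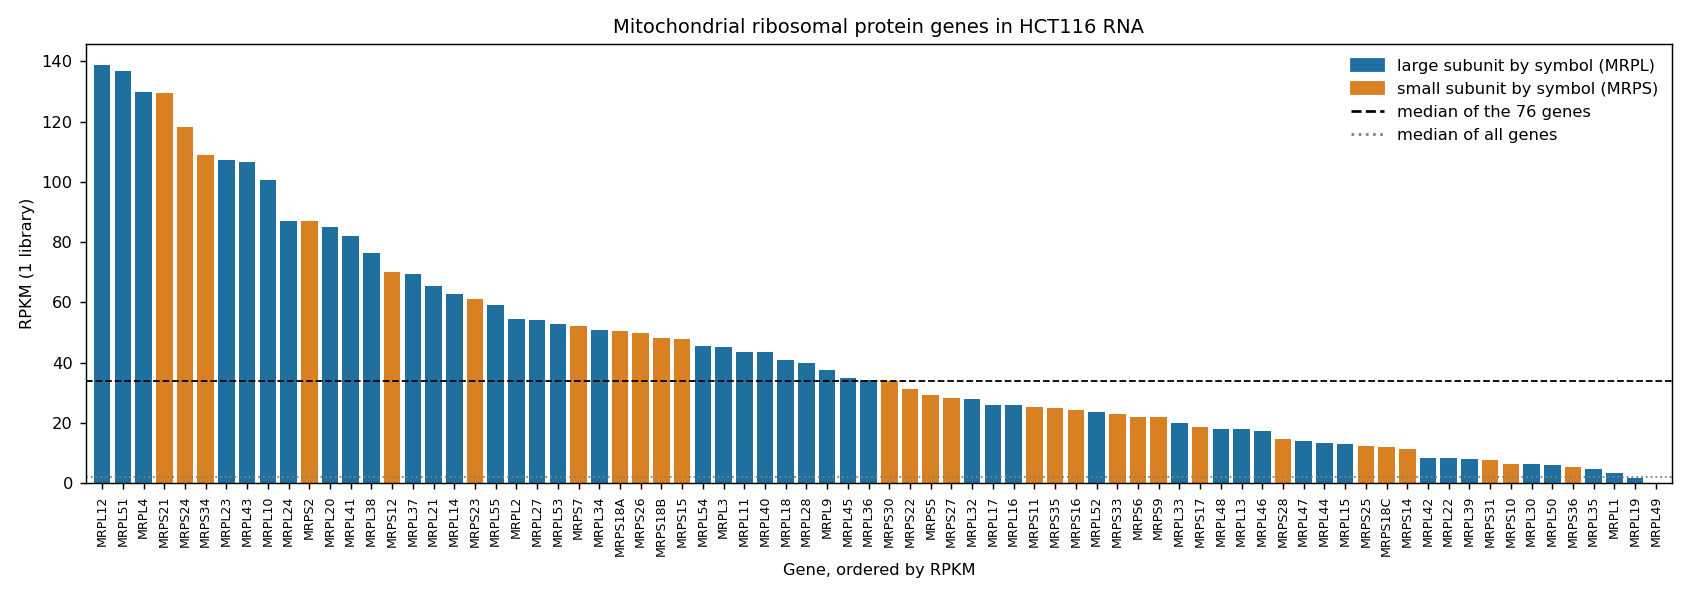
Bars give the RPKM of each of the 76 genes in the 1 HCT116 library, ordered from highest to lowest and coloured by the subunit that the symbol names. Levels fell off gradually from MRPL12 at 139 RPKM, with 9 genes over 100 RPKM, 12 under 10 RPKM and MRPL49 listed at 0. The lowest of the 9, MRPL10, ranked 492 of all 20423 genes. Of all genes, 24.4% stood at or above 10 RPKM.

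Most proteins of a ribosome are present in equal numbers, but the levels of their RNAs were spread widely. The highest member stood 73.7 times above the lowest one that was not listed at 0, and the upper quartile 3.58 times above the lower one. MRPL12, the stalk protein that is present in several copies and also binds the mitochondrial RNA polymerase, was the highest at 139 RPKM, rank 345 of all genes. MRPL10, which anchors that stalk, stood at 101 RPKM, and MRPL11, at the base of the stalk, at 43.6 RPKM.

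Next to MRPL12 came MRPL51, a protein without a bacterial counterpart, at 137 RPKM. MRPL4 of the large subunit core followed at 130 RPKM. MRPS21, the counterpart of bacterial S21, stood at 129 RPKM. MRPS24, the counterpart of bacterial S3, stood at 118 RPKM. These were followed by MRPS34, a small subunit protein without a bacterial counterpart, at 109 RPKM and by MRPL23 of the exit tunnel at 107 RPKM. MRPL43, a large subunit protein without a bacterial counterpart, stood at 107 RPKM. MRPL24, also of the exit tunnel, completed the 10 highest at 87.0 RPKM. The genes over 100 RPKM were thus 6 of the large and 3 of the small subunit.

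Levels also differed widely between proteins that lie close together in the ribosome. Around the exit tunnel, MRPL23 and MRPL24 stood at 107 and 87.0 RPKM, but MRPL47, the counterpart of bacterial L29, at 13.96 RPKM and MRPL22 at 8.47 RPKM. MRPL45, which contacts the inner membrane at the tunnel exit, stood at 35.0 RPKM, and MRPL44, with a ribonuclease III-like fold, at 13.4 RPKM. MRPL41, also beside the tunnel, stood at 82.1 RPKM. Near the peptidyl transferase centre, MRPL2, MRPL27 and MRPL3 lay closer together at 54.5, 54.2 and 45.1 RPKM. MRPL38 of the central protuberance stood at 76.5 RPKM, MRPL16 near it at 25.9 RPKM. MRPL55, the counterpart of bacterial L31, stood at 59.1 RPKM.

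In the small subunit, MRPS12 of the decoding centre stood at 70.0 RPKM. MRPS7 and MRPS9, both of the head, stood at 52.3 and 22.03 RPKM. MRPS2 was at 86.9 RPKM and MRPS5, at the mRNA entry, at 29.4 RPKM. MRPS16 and MRPS22, each mutated in a combined respiratory chain deficiency, stood at 24.2 and 31.2 RPKM. MRPS28, the counterpart of bacterial S1, stood at 14.7 RPKM, and MRPS27, a pentatricopeptide repeat protein, at 28.1 RPKM. The 3 paralogues of bacterial S18 were unequal: MRPS18A stood at 50.5 and MRPS18B at 48.2 RPKM, but MRPS18C at 11.9 RPKM. MRPS18A, and also MRPS30 at 33.8 RPKM, lie in the large subunit in structures of the ribosome despite their symbols. MRPL36 at 34.3 RPKM and MRPS30 were the members nearest the median.

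The 12 members under 10 RPKM were 9 of the 47 large and 3 of the 29 small subunit genes. MRPL42, MRPL22 and MRPL39, which resembles threonyl-tRNA synthetase, stood at 8.48, 8.47 and 8.11 RPKM. MRPS31 and MRPS10 stood at 7.79 and 6.32 RPKM, MRPL30 and MRPL50 at 6.26 and 6.20 RPKM. MRPS36, later assigned to the 2-oxoglutarate dehydrogenase complex in place of the ribosome, stood at 5.31 RPKM. MRPL35 stood at 4.72 RPKM. MRPL1, the counterpart of the bacterial protein at the exit site for spent tRNAs, stood at 3.38 RPKM and MRPL19 at 1.88 RPKM, just under the median of all genes.

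MRPL49, without a bacterial counterpart, was listed at 0. Such a value need not mean absence of RNA in this table. Of 79 cytosolic ribosomal protein genes, which every growing cell uses, RPL10 and RPS14 were also listed at 0, as was YWHAZ, a signalling adaptor found in most cells. In all, 3398 genes were listed at 0. Low values above 0 may be uncertain too. The cytosolic ribosomal protein genes RPL21 and RPS26 stood at 0.0800 and 4.34 RPKM, against a median of 649 RPKM over the 79.

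Large and small subunit genes overlapped over nearly their whole range. The median was 39.9 RPKM for the 47 large subunit genes (quartiles 15.6 and 64.0 RPKM) and 28.1 RPKM for the 29 small subunit genes (quartiles 18.8 and 50.5 RPKM), a ratio of 1.42. The ratio of geometric means, with a pseudocount of 1 RPKM, was 0.993, so by that summary the subunits were nearly equal. The large subunit genes include MRPL49, whose listed value need not mean absence of RNA. The ratio of geometric means was not computed without MRPL49. Members were not treated as replicates and the difference was not tested.

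Genes with a bacterial counterpart had a median of 38.7 RPKM (48 genes) and those without one of 29.6 RPKM (28 genes), a ratio of 1.31. Within the large subunit the medians were 40.4 RPKM with a counterpart and 35.0 RPKM without one. Within the small subunit they were 27.4 and 28.1 RPKM, so the order was not the same in both subunits.

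**Figure D2:**
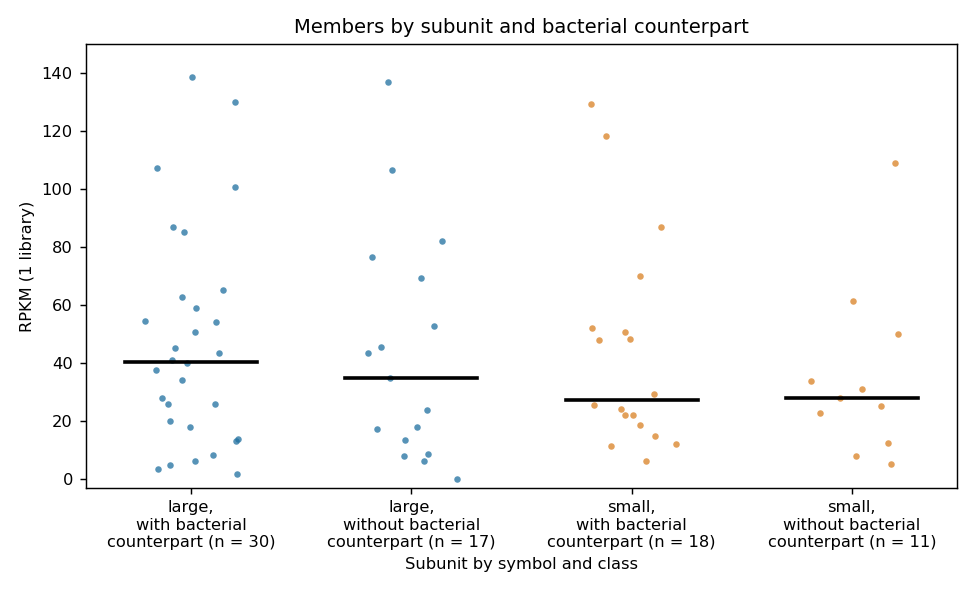
Each point is 1 gene, with its RPKM in the 1 HCT116 library on the vertical axis, and lines mark medians. The large subunit genes had medians of 40.4 RPKM with and 35.0 RPKM without a bacterial counterpart, the small subunit genes of 27.4 and 28.1 RPKM, and the points of the 4 classes overlapped.

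Many members have named pseudogenes in the genome, and reads from copies that are near-identical can be split between loci. Neither the origin of these pseudogenes nor their likeness to the members was examined. The sources used here do not state how reads with several matches were counted. RefSeq names 98 pseudogenes after 41 of the members, led by MRPS21 with 9. The 41 members with such a pseudogene had a median of 29.4 RPKM and the 35 without one of 41.0 RPKM. Of the 12 members under 10 RPKM 9 had a named pseudogene, against 3 of the 9 members over 100 RPKM and 41 of all 76. These counts were made after the values were seen. No such count was made for other genes, so they are not read as a trait of low or high members. MRPL42, MRPS18C, MRPS36 and MRPS17, the last at 18.8 RPKM, had 6 pseudogenes each. MRPL1, MRPL19 and MRPL39, among the lowest, had none. The part of these pseudogenes in the levels was not tested, and the levels of the 41 members are uncertain to that extent. The expression table itself lists 2 pseudogenes, MRPL42P5 at 0.321 RPKM beside MRPL42 at 8.48 RPKM and MRPL45P2 at 3.99 RPKM beside MRPL45 at 35.0 RPKM.

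The remaining proteins of the mitochondrial ribosome, which carry other symbols, lay within the range of the members but had a higher median. AURKAIP1, GADD45GIP1, ICT1 and DAP3 stood at 88.7, 70.9, 63.7 and 57.9 RPKM. CHCHD1 and MRP63 stood at 18.1 RPKM each and PTCD3, with pentatricopeptide repeats, at 6.83 RPKM. Their median was 57.9 RPKM over 7 genes, against 34.1 RPKM for the members, with 4 above the members' median.

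Genes that build or serve the mitochondrial ribosome were mostly expressed at lower levels than its proteins. The 18 assembly factors had a median of 11.5 RPKM, and 2 lay above the members' median: DHX30, a helicase, at 39.0 RPKM and C7orf30 (MALSU1), an assembly factor of the large subunit, at 38.5 RPKM. ERAL1, a chaperone of the small subunit RNA, stood at 31.4 RPKM. The lowest were GTPBP10, FASTKD2 and MRM1 at 1.26, 1.75 and 4.82 RPKM.

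The 16 translation factors had a median of 8.28 RPKM but held the highest gene of this group, the elongation factor TUFM at 244 RPKM. OXA1L, which inserts the new proteins into the inner membrane, stood at 95.5 RPKM and TACO1, a translational activator of cytochrome c oxidase, at 25.6 RPKM. MTRF1, a release factor, stood at 1.99 RPKM. MRRF, the recycling factor, and C14orf156 (SLIRP) were listed at 0.

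The 20 mitochondrial aminoacyl-tRNA synthetases and related amidotransferase subunits had a median of 7.25 RPKM, from QRSL1 at 2.64, WARS2 at 3.50 and FARS2 at 3.96 RPKM to VARS2 at 14.3, IARS2 at 18.6 and SARS2 at 26.97 RPKM. None of the 20 reached the members' median. Of 9 genes of mitochondrial transcription and RNA processing, none did either. They ran from MTERF, MTPAP and C17orf42 (TEFM) at 1.78, 2.30 and 2.31 RPKM to SUPV3L1, ELAC2 and the RNA polymerase POLRMT at 12.2, 24.7 and 25.7 RPKM.

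The nuclear-encoded subunits of the respiratory chain and ATP synthase stood higher. Mitochondrial translation supplies subunits to these complexes except complex II. Members had a median of 34.1 RPKM and the 75 respiratory chain genes one of 95.6 RPKM, with 62 of the 75 above the members' median. COX8A, NDUFB9 and COX4I1 led them at 602, 533 and 461 RPKM. NDUFA5 stood at 2.98 RPKM, and ATP5J2 and NDUFB11 were listed at 0.

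Members stood far below the proteins of the cytosolic ribosome, with a median of 34.1 RPKM against 649 RPKM over 79 cytosolic genes, a ratio of 0.0525. Of the cytosolic genes 64 exceeded MRPL12, the highest member. RPLP2, the third of them by level after RPLP1 and RPL8, stood at 2293 RPKM. RPL10 and RPS14, listed at 0, were the lowest.

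**Figure D3:**
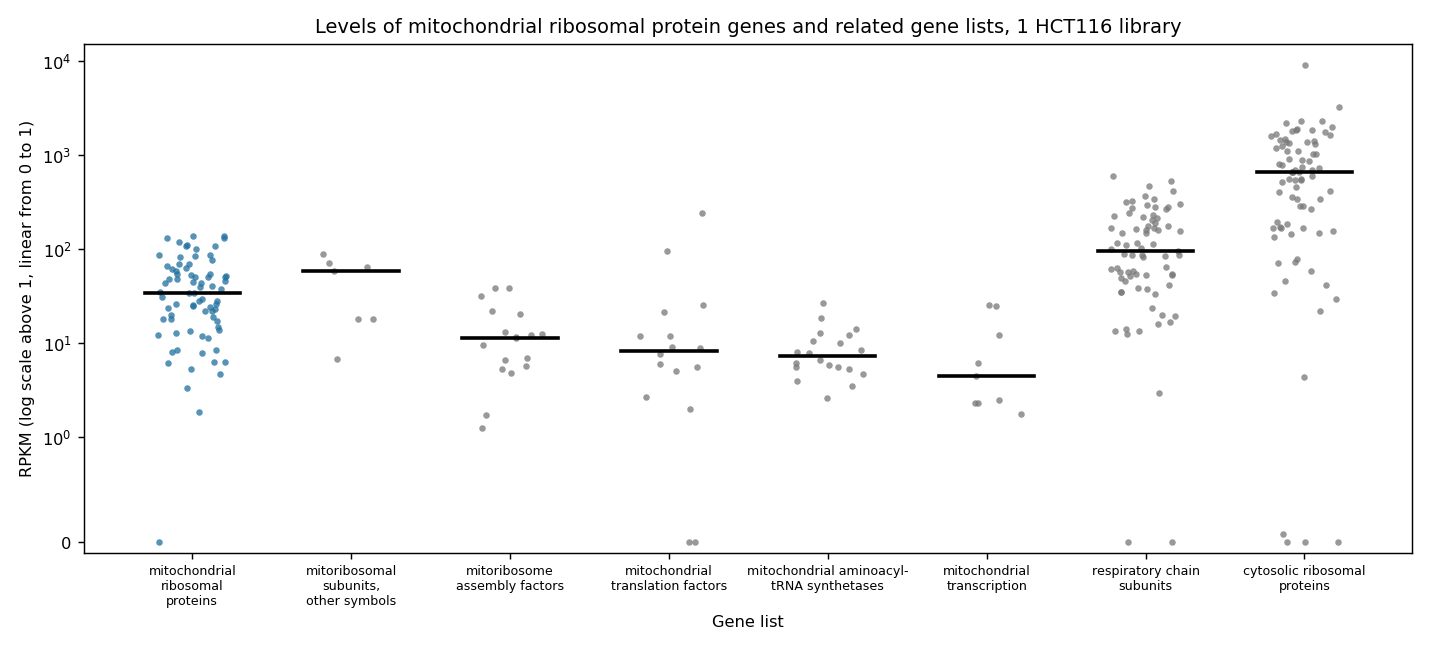
Each point is 1 gene, with its RPKM in the 1 HCT116 library on an axis that is logarithmic above 1 and linear from 0 to 1, and lines mark medians. The mitochondrial ribosomal protein genes, with a median of 34.1 RPKM, lay above 4 lists of genes that build or serve the mitochondrial ribosome (medians from 4.46 to 11.5 RPKM) and below respiratory chain and cytosolic ribosomal protein genes.

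The promoters of the members were read from RefSeq as windows of 300 bases, from 250 bases before to 50 bases after each annotated start (GRCh38.p14). A window was found for 68 of the 76 members, 84 windows in all. None was at hand for MRPL2, MRPL10, MRPL13, MRPL15, MRPL21, MRPL23, MRPL35 and MRPS28. The windows were searched on both strands for 6 short motifs: the GC box GGGCGG, bound by SP1 and related factors; the ETS core CCGGAAG, bound among others by GABPA (NRF-2); the NRF-1 core GCATGCGC; the YY1 core AAGATGGC; the CCAAT box CCAAT; and the TATA box TATAAA. A match is only a match of letters, and 1 pair of sites of different motifs shared bases among 215 sites. The following windows belong to both ends of the range of levels and to MRPS12, which shares its start region with SARS2; capitals mark motif matches on either strand. MRPL12 was read from chr17:81703117-81703416 (plus strand), MRPL51 from chr12:6493213-6493512 (minus strand), MRPS12 from chr19:38930694-38930993 (plus strand, the first of its 2 windows) and MRPL19 from chr2:75646533-75646832 (plus strand).
MRPL12: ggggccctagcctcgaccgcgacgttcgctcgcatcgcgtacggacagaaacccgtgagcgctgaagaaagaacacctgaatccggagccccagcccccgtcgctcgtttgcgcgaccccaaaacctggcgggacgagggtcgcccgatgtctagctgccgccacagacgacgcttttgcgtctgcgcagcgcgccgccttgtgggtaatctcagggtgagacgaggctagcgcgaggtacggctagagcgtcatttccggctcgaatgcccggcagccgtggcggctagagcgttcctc
MRPL51: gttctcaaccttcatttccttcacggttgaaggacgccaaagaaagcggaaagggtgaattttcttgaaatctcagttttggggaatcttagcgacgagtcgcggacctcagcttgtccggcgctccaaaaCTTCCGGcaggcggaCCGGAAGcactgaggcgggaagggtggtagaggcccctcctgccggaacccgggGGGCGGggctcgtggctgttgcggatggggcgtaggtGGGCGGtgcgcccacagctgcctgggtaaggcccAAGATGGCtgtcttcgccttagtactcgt
MRPS12: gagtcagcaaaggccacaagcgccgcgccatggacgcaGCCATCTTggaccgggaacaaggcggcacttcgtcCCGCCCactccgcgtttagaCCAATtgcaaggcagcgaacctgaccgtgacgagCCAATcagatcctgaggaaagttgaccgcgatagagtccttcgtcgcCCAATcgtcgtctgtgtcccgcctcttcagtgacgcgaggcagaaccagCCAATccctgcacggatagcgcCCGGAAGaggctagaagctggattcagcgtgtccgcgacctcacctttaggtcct
MRPL19: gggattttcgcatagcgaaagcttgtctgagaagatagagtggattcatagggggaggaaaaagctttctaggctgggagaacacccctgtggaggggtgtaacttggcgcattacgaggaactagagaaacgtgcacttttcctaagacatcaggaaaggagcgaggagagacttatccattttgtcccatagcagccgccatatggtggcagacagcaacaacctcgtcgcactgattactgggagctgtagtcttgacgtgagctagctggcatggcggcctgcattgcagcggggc

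The windows of MRPL12, at 139 RPKM, and of MRPL19, at 1.88 RPKM, held none of the 6 motifs. That of MRPL51, at 137 RPKM, held 2 GC boxes, 2 ETS cores and 1 YY1 core. That of MRPS12, at 70.0 RPKM, held 1 GC box, 1 ETS core, 1 YY1 core and 4 CCAAT boxes. Among these examples, MRPL12 and MRPL51, of similar level, differed in their motifs, and MRPL12 and MRPL19, far apart in level, both held none. These windows were picked as examples, and a link of motifs with level was not tested.

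The YY1 core and the ETS core were found in a larger share of members than of all genes and of genes at or above 10 RPKM, whereas the GC box exceeded the share of all genes alone. All shares are of genes with the motif in any of their windows, and intervals are 95% exact binomial ones. For promoters and neighbours, all genes means the 27305 RefSeq genes with a window, not the 20423 genes of the expression table. It thus includes genes without a value. Genes at or above 10 RPKM means the 4020 with a window, against 4974 in the expression table. Part of a gap to all genes can therefore come from this change of gene set. The YY1 core was found in 21 of 68 members (30.9%, 20.2 to 43.3), against 8.16% of 4020 genes at or above 10 RPKM and 3.52% of all 27305 genes. The ETS core was found in 29 members (42.6%, 30.7 to 55.2), against 26.9% of genes at or above 10 RPKM and 12.2% of all genes. The GC box was found in 42 members (61.8%, 49.2 to 73.3), which is below the 80.8% of genes at or above 10 RPKM and above the 48.3% of all genes.

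The NRF-1 core was found in 6 members (8.82%, 3.31 to 18.2), against 7.06% of genes at or above 10 RPKM and 3.68% of all genes. The CCAAT box was found in 23 members (33.8%, 22.8 to 46.3), against 44.6% and 39.7%. The TATA box was found in 4 members (5.88%, 1.63 to 14.4), against 7.31% and 13.99%. Genes at or above 10 RPKM had more windows each, 5833 for 4020 genes. Counted per window, the YY1 core was in 27.4% of the members' windows, against 5.97% of windows of genes at or above 10 RPKM and 2.89% of all windows. The ETS core was in 38.1%, against 20.4% and 10.3%, and the GC box in 60.7%, against 71.3% and 45.0%. The comparison genes include the members, and no test was made because the members and motifs were chosen with results of these data known.

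**Figure D4:**
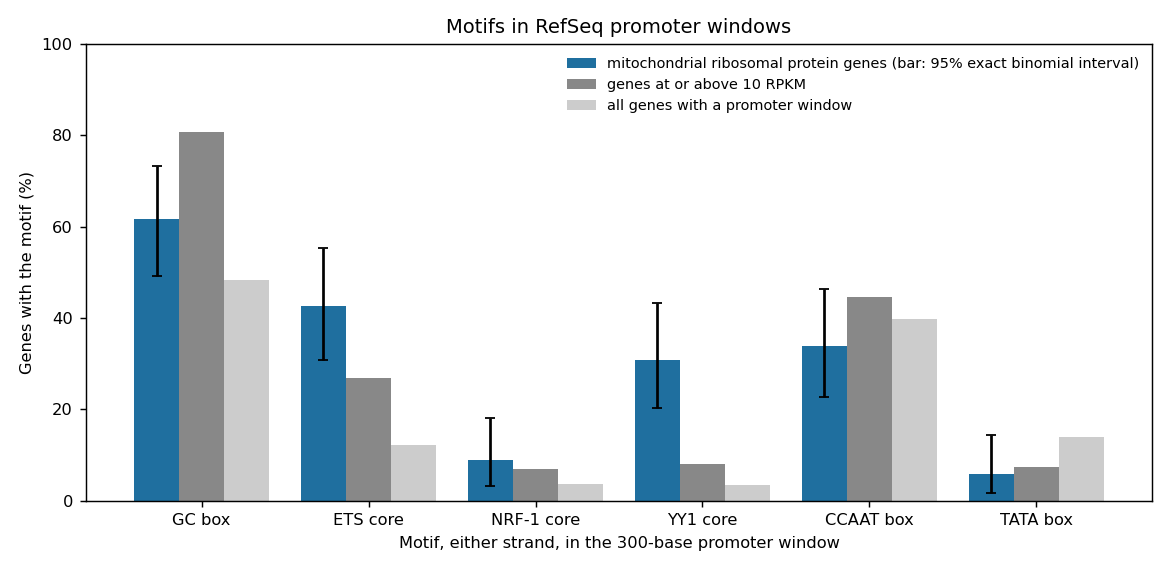
Bars give the percentage of genes with each motif in a RefSeq promoter window. They cover the 68 members, the 4020 genes at or above 10 RPKM and all 27305 genes that have a window. Error bars are 95% exact binomial intervals. The members' share was 30.9% for the YY1 core against 8.16% and 3.52%, and 61.8% for the GC box against 80.8% and 48.3%.

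The YY1 core lay at a fixed side of the start in most members that had it. Of its 22 sites 16 lay after the annotated start on the strand of the gene, in 16 genes, 9 of the large and 7 of the small subunit. They began between positions 7 and 36, counted from 1 at the start. This placement was defined after results of the members were seen, which can favour the members in a comparison. Such a placement was found in 23.5% of members, against 4.48% of genes at or above 10 RPKM and 1.57% of all genes with a window. These shares also reflect how many genes have the core at all. Among genes with the core, the placement was found in 16 of 21 members. It was found in 180 of 328 genes at or above 10 RPKM and in 430 of 962 of all genes, so it was common outside the members too. In 10 of the 16 members with this placement the core was followed by GG. The core contains the letters ATG, and whether it covers the start codon was not tested. The sites of the 4 genes with the highest and the 4 with the lowest levels are shown with the bases around them, the core in capitals, in GRCh38.p14. For MRPL49 the position is from the start of its second window. The MRPL51 bases are chr12:6493223-6493252 on the minus strand, with the core from position 22. The MRPS24 bases are chr7:43869480-43869509 on the minus strand, with the core from position 20. The MRPL20 bases are chr1:1407260-1407289 on the minus strand, with the core from position 16. The MRPL38 bases are chr17:75904860-75904889 on the minus strand, with the core from position 7. The MRPL22 bases are chr5:154941097-154941122 on the plus strand, with the core from position 36. The MRPS10 bases are chr6:42217834-42217863 on the minus strand, with the core from position 10. The MRPL50 bases are chr9:101398577-101398606 on the minus strand, with the core from position 24. The MRPL49 bases are chr11:65122333-65122362 on the plus strand, with the core from position 24.
MRPL51: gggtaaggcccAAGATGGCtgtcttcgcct
MRPS24: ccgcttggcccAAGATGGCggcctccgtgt
MRPL20: ccgacccgggcAAGATGGCagcggcgctgc
MRPL38: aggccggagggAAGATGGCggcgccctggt
MRPL22: cgggagggcgaAAGATGGCggcggca
MRPS10: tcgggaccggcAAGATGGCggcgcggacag
MRPL50: ggatctcatcgAAGATGGCggcgcgatctg
MRPL49: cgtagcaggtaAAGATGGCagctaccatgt

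These genes ran from MRPL51 at 137, MRPS24 at 118, MRPL20 at 85.2 and MRPL38 at 76.5 RPKM to MRPL22 at 8.47, MRPS10 at 6.32 and MRPL50 at 6.20 RPKM, with MRPL49 listed at 0. Over all members with a window, the median was 33.8 RPKM for the 21 genes with a YY1 core and 37.5 RPKM for the 47 without it. With and without an ETS core the medians were 43.6 RPKM (29 genes) and 28.1 RPKM (39 genes). With and without a GC box they were 37.4 RPKM (42 genes) and 32.5 RPKM (26 genes). These differences lie well within the range of levels in each group and were not tested.

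Of the 68 members with a window, 25 (36.8%, 25.4 to 49.3) had an annotated start within 1 kb of that of a gene that reads away on the other strand. The share was 30.1% of the 4020 genes at or above 10 RPKM and 20.1% of all 27305 genes, each with a window. Such neighbours are called divergent partners here, and a region between the starts can serve both. MRPL46 and MRPS11, of the large and the small subunit, were partners of each other and stood at 17.3 and 25.4 RPKM.

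Partners with a value had varied roles, and some are given here as examples, chosen after their values were seen. MRPS12 at 70.0 RPKM was paired with SARS2, the mitochondrial seryl-tRNA synthetase, at 26.97 RPKM. MRPL49, listed at 0, was paired with FAU, which encodes a fusion protein with cytosolic ribosomal protein S30, at 657 RPKM. MRPL18 at 41.0 RPKM was paired with TCP1, a chaperonin subunit, at 55.4 RPKM. MRPL32 at 28.1 RPKM was paired with PSMA2, a proteasome subunit, at 29.1 RPKM. MRPS27 at 28.1 RPKM, a pentatricopeptide repeat protein, was paired with PTCD2, another one, at 4.17 RPKM.

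Apart from the MRPL46 and MRPS11 pair, 17 pairs had a partner with a value, and the member was higher in 13 of them. Of all genes, 91.7% lay below the median of the 76 members. The count is therefore not read as a trait of these pairs, and none was made for pairs of other genes. Members of these pairs had a median of 45.5 RPKM and their partners one of 17.5 RPKM. As a ratio, the widest gaps on the side of the member were those of MRPL37 at 69.3 RPKM with CYB5RL at 2.93 RPKM and of MRPS18C at 11.9 RPKM with HELQ, a helicase, at 1.098 RPKM. MRPL51 at 137 RPKM stood beside NCAPD2, a condensin subunit, at 34.3 RPKM. MRPL50 at 6.20 RPKM stood beside ZNF189 at 1.11 RPKM and MRPL30 at 6.26 RPKM beside MITD1 at 8.20 RPKM. The sources do not state whether the library kept the strand of its RNA, so reads from parts of such pairs that overlap cannot be assigned with certainty.

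**Figure D5:**
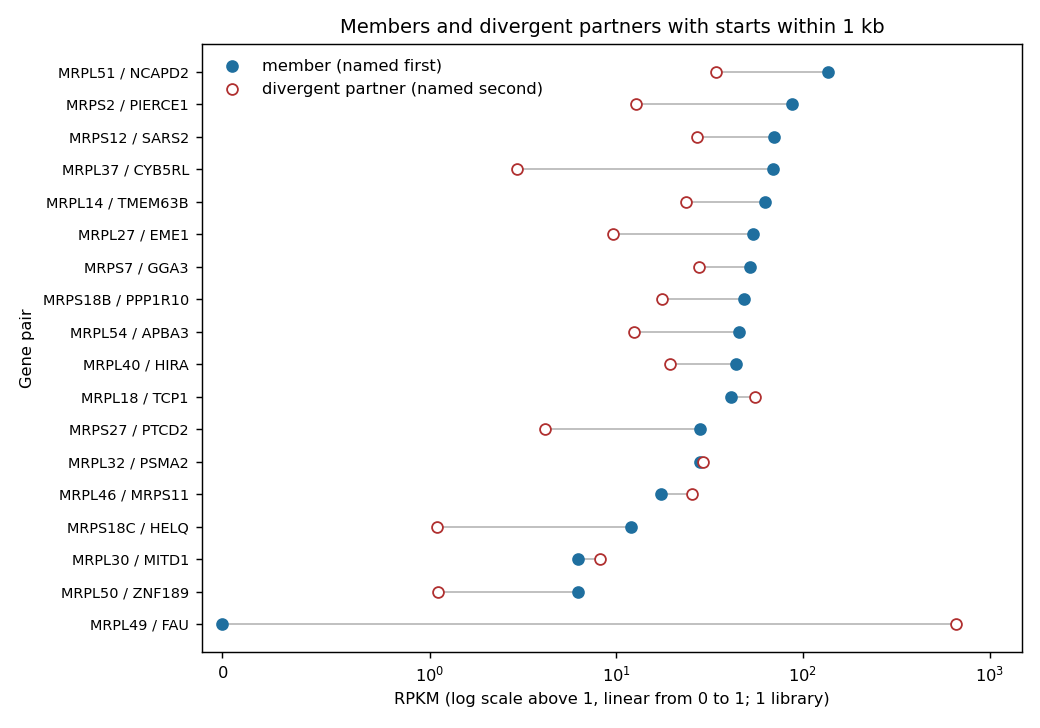
Each row is a member with its divergent partner, starts within 1 kb in GRCh38.p14, and the axis is RPKM in the 1 HCT116 library, logarithmic above 1 and linear from 0 to 1. Filled points are members and open points partners, with MRPS11 drawn as the partner of MRPL46. The member was higher in 13 of the 17 pairs whose partner is no mitochondrial ribosomal protein gene. Of all genes, 91.7% lay below the median of all members. MRPL49, listed at 0, with FAU at 657 RPKM was the widest pair in the other direction, and a listed 0 need not mean absence of RNA.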

How the data were processed

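The authors deposited 1 RPKM value per RefSeq gene; per the deposited readme, reads were aligned to hg18 with TopHat and values computed with Cufflinks, for which the submitters' processing notes give version 1.1.0. The sources state neither gene models, read length and depth nor the counting of multiply aligned reads. Values were used as deposited. Genes were matched by symbol, or to RefSeq (GRCh38.p14) by symbol or synonym, and RefSeq was used for names, pseudogenes, promoter windows and neighbours. No test was made on levels, since there is 1 library. Motifs were searched as exact letters on both strands, a search tested on sequences with planted motifs, and shares have 95% exact binomial intervals, which cover counting error alone. The members, gene lists and motifs were chosen with earlier results of these data known, and the pseudogene comparison and the detailed YY1 placement were added after seeing the values. Named genes were the 10 highest and 10 lowest members, those near the median, the MRPS18 paralogues, members with a listed role, the 3 highest and 3 lowest of each other list, all subunits under other symbols, and divergent partners of named members; 1 gene that this rule names is not reported here. MRPL37, MRPL18, MRPL32, MRPL20 and MRPS11 were named for their partner or printed site after their values were seen. A planned exact permutation test over the 5 insertion libraries needed hg18 gene starts and was not run. Python 3.11.15, pandas 2.3.3, numpy 2.4.6, scipy 1.17.1 and matplotlib 3.10.9 were used.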

Additional observations from a re-analysis of the deposited data

How the results depend on the processing

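The members' median of 34.1 RPKM became 34.3 RPKM with members above 0, with members at or above 1 RPKM and with the 7 subunits under other symbols, 41.0 RPKM with members without a named pseudogene, and 29.5 and 28.2 RPKM as geometric means with pseudocounts of 1 and 0.1 RPKM. Below it lay 85.4% of the genes at or above 1 RPKM, in place of 91.7% of all genes. The share of members at or above a level was 94.7% at 5 RPKM and 68.4% at 20 RPKM, against 35.96% and 13.9% of all genes. The ratio of large to small subunit medians of 1.42 became 1.57 with MRPS18A and MRPS30 in the large subunit, 1.44 with members at or above 1 RPKM and with other symbols, 1.28 without pseudogene-bearing members, and 0.993 as geometric means. The ratio of medians with to without a bacterial counterpart of 1.31 became 1.24 with members at or above 1 RPKM and 1.03 without pseudogene-bearing members. With genes at or above 1 RPKM alone, the medians were 9.02 RPKM for translation factors, 657 RPKM for cytosolic ribosomal proteins and 99.5 RPKM for respiratory chain subunits. On the strand of the gene alone the shares of members were 38.2% for the GC box, 22.1% for the ETS core, 14.7% for the CCAAT box and 1.47% for the TATA box, which follows from searching fewer letters. With the bases before the start alone, the YY1 core was found in 7.35% of members. Within 300 bases 20 members, and within 2 kb 26 members, had a divergent partner. The setting without pseudogene-bearing members was chosen after seeing the data. No paired analysis was possible because the levels come from 1 library and no test between groups was run; the planned comparison of insertion libraries at gene starts, with its alternatives, was not run. Without a replicate or a known depth, small differences between levels cannot be told from error.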

Other observations

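The members were scattered over 21 chromosomes, with no more than 8 on any of them. Chromosomes 1 and 2 held 8 members each, with medians of 64.2 and 16.6 RPKM, and chromosomes 11 and 17 held 7 each, with medians of 26.0 and 61.2 RPKM. The 3 members on chromosome 9, MRPS2, MRPL41 and MRPL50, stood at 86.9, 82.1 and 6.20 RPKM. These values are a description of 1 library.

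The promoter windows of members had a median GC content of 60.2%, against 66.0% for windows of genes at or above 10 RPKM and 58.7% for all windows. Of the GC box, ETS, NRF-1 and YY1 motifs, 7 members held none, 31 held 1 kind, 23 held 2 kinds and 7 held 3 kinds, with medians of 37.5, 31.2, 35.0 and 50.5 RPKM. Of the ETS cores of members, 33 of 38 sites lay between positions -100 and 50, whereas 49 of 106 GC boxes did. That stretch is a large part of each window, so many evenly spread sites would also fall in it. Such positions were not counted for other genes, so the placement is not read as a trait of members.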
